A study of Ovis aries with 9 samples.

Results

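The drug-metabolizing enzymes described here are 33 genes of 7 families, out of 28837 genes named in a count table of single sheep hepatocytes. The rule that took them reads gene symbols alone and uses no measured value: 8 cytochromes P450 (CYP) of families 1 to 4, 5 flavin-containing monooxygenases (FMO), 4 epoxide hydrolases (EPHX), 6 UDP-glucuronosyltransferases (UGT), 4 sulfotransferases (SULT), 3 soluble glutathione S-transferases (GST) and 3 microsomal ones (MGST). Of these, 27 reached 5 counts per 1000000 reads (CPM) in at least 1 stage. The study asked how hepatocytes of the ewe adapt to gestation and lactation. Hepatocytes were freed from the livers of slaughtered female sheep (Ovis aries) with collagenase, picked by hand, and each turned into its own Smart-seq3xpress library, a plate-based single-cell RNA method. The groups were lactation (2 samples, days 7 and 15 after birth), gestation (6 samples, days 40 to 50, 50 to 70, 70 to 80, 90 to 100, 100 to 120 and 140 to 150) and virgin (1 sample). No treatment or engineered allele is named for any group, and the labels give no breed, no age and no number of animals behind a sample.

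These enzymes make fat-soluble drugs, plant compounds and hormones easier to excrete. P450s and FMOs add or expose an oxygen atom, epoxide hydrolases open the reactive epoxides that can result, and the transferases then attach glucuronic acid, sulfate or glutathione. In liver they belong mainly to hepatocytes, and many P450s are known to be most abundant around the central vein of the lobule.

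Counts were summed over the cells of a stage, 246 to 553 cells and 114865665 to 272944124 reads a sample, and scaled to CPM. A sum cannot tell fewer cells expressing a gene from less RNA in each cell. The 13 hepatocyte markers with a row summed to 80958 to 112183 CPM in lactation, 161062 to 216737 CPM in gestation and 174081 CPM in the virgin sample, with 1 of them at 0 reads in all stages. Markers of other cells were near the floor: at most 14.4 CPM for the 10 endothelial genes, 25.5 for the 10 stellate, 3.02 for the 6 bile duct, 46.0 for the 8 macrophage, 48.6 for the 10 lymphocyte, 12.9 for the 4 neutrophil and 6.86 for the 5 red cell genes. The labels name no separate animals, so a p-value measures only the spread between stages, which may be technical, and the lone virgin sample is assumed to vary like the others. Between lactation and gestation the median log2 fold change of all genes was -0.01 with TMM scaling and 0.18 when scaled by library size alone, and fold changes below use TMM.

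Per kilobase of the deposited gene length, CYP2E1 had the highest level of the selected enzymes, a mean of 4895 CPM per kb over the 9 stages. GSTA1-1, a glutathione transferase whose hyphenated symbol the selection did not match, was above it at 6449.5 CPM per kb. Of the selected enzymes MGST1 came next at 1583, CYP2C19 at 682, CYP3A24 at 654, FMO1 at 598, EPHX1 at 525 and UGT2B7 at 438 CPM per kb. The FMO2, FMO4, SULT1C2 and UGT1A genes all lay below 5 CPM per kb, from 0.504 for UGT1A9 to 4.80 for SULT1C2. This order depends on the deposited lengths, which were 17354 bases for FMO4 and 11180 bases for MGST3. Before division by length FMO4 averaged 32.9 CPM, above SULT1C2 at 16.2 CPM. Of the 27 enzymes, 17 stayed within 3-fold between their lowest and highest stage and 9 spread over more than 5-fold. Day 7 of lactation held the lowest value of 10 enzymes and the virgin sample that of 6, while day 15 held the highest value of 7. Near the 5 CPM limit, UGT1A9 peaked at 5.29 CPM and UGT1A4 at 6.64 CPM just inside it, and EPHX3 at 2.25 CPM outside. CYP4F21, EPHX4, SULT2B1, SULT4A1 and SULT6B1 had 1 to 7 reads each in the whole table and entered no test.

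The cytochromes P450 summed to 8408 CPM in the virgin sample, 14632, 15439, 15503, 14332, 14823 and 8167 CPM over the gestation samples, and 8933 and 12489 CPM on lactation days 7 and 15. Gestation samples are listed by day, from days 40 to 50 up to days 140 to 150. The 5 gestation samples up to days 100 to 120 lay within 14332 to 15503 CPM, above the virgin sample, days 140 to 150 and both lactation days. The value of days 70 to 80 averaged over unlike runs of cells, described below for CYP1A1. From cells up to number 89 alone the P450 sum of that stage was 12617 CPM, near the 12489 CPM of lactation day 15. From cell 90 on it was 18495 CPM, so neither part lay within the range above. CYP2E1 made up 54.1% to 76.1% of the reads of the 8 selected P450s in a stage and 32.2% to 43.6% of the reads of all 33 enzymes.

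**Figure D1:**
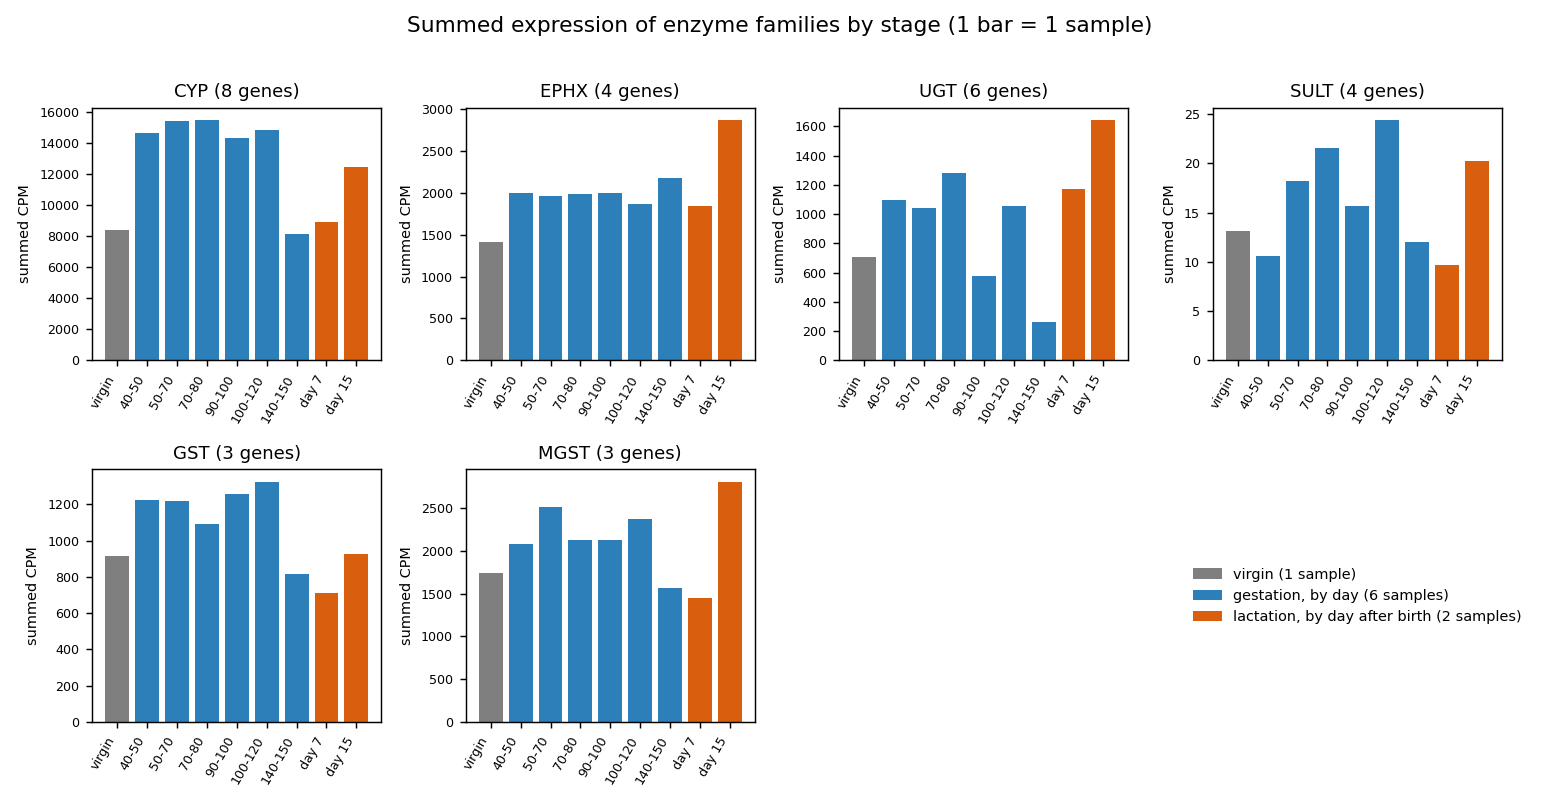
Summed CPM of 6 enzyme families (y axis, from 0) in each stage (x axis, virgin, gestation by day, lactation by day); each bar is 1 sample, without error bars since a stage has 1 sample. The CYP, UGT and GST sums are lowest within gestation at days 140 to 150, at 8167, 266 and 814 CPM.

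CYP2E1, which oxidizes ethanol, acetone and small solvents, had 6395 CPM in the virgin sample, 8998, 10388, 8387, 10272, 10147 and 5572 CPM over the gestation samples, and 5759.8 and 8799.7 CPM on lactation days 7 and 15. Both lactation values lay within the range of the gestation samples. CYP2C19, of the family that oxidizes many acidic and neutral drugs in man, had 636 CPM in the virgin sample, 2849, 2096, 1482, 1371, 1719 and 321 CPM over the gestation samples, and 826 and 624.8 CPM on lactation days 7 and 15. It was highest at days 40 to 50 and lowest at days 140 to 150, with both lactation days below every gestation sample but the last.

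CYP2A6, a coumarin and nicotine oxidase in man, had 161 CPM in the virgin sample, 850.2, 736, 967, 760.1, 1201 and 528 CPM over the gestation samples, and 335 and 714 CPM on lactation days 7 and 15. The virgin sample was the lowest of all 9. CYP3A24, of the subfamily that handles the widest range of drugs and also steroids, had 555 CPM in the virgin sample, 1103, 1480.3, 1062, 1192, 968 and 1169.8 CPM over the gestation samples, and 1168 and 1027 CPM on lactation days 7 and 15. Here too the virgin sample was the lowest, and the 8 others lay within 968 to 1480.3 CPM. CYP2C18 had 48.8 CPM in the virgin sample, 72.6, 74.9, 146, 113, 108 and 90.8 CPM over the gestation samples, and 88.9 and 112 CPM on lactation days 7 and 15, again with the lowest value in the virgin sample. CYP2C18 and CYP2C19 are 4 protein-coding genes apart and related in sequence, so reads could have been split between them.

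CYP2D6, which oxidizes many basic drugs in man, ran from 176 CPM on lactation day 7 to 636 CPM at gestation days 40 to 50. CYP1A1, which oxidizes aromatic hydrocarbons and is the classical target of the aryl hydrocarbon receptor, had 336 CPM in the virgin sample, 122, 452, 3179, 256, 308 and 249 CPM over the gestation samples, and 580.2 and 660.4 CPM on lactation days 7 and 15. Days 70 to 80 stood 7.03-fold above the next gestation sample, days 50 to 70. CYP2J, a symbol without a number that the selection did not match, held 65.4 to 157 CPM.

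FMO1, a flavin-containing monooxygenase that oxidizes soft nitrogen and sulfur atoms of drugs, had 819 CPM in the virgin sample, 1085, 1529.8, 1669.7, 1677, 1233 and 796 CPM over the gestation samples, and 770.3 and 1747 CPM on lactation days 7 and 15. Days 70 to 80 and 90 to 100 of gestation and day 15 of lactation were the high samples, and the virgin sample, days 140 to 150 and lactation day 7 the low ones.

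FMO5, which acts on ketones rather than on nitrogen, had 487 CPM in the virgin sample, 826, 1202, 890.0, 620.4, 858 and 595 CPM over the gestation samples, and 976 and 1460.0 CPM on lactation days 7 and 15. Its lowest sample was the virgin one and its highest was lactation day 15. FMO4 had 45.5 CPM in the virgin sample, 40.6, 48.4, 29, 33.3, 18.6 and 25.2 CPM over the gestation samples, and 20.8 and 34.5 CPM on lactation days 7 and 15, and FMO2, the lung form in many mammals, had 4.47 CPM in the virgin sample, 1.44, 10.5, 7.12, 9.02, 7.21 and 5.48 CPM over the gestation samples, and 3.19 and 4.90 CPM on lactation days 7 and 15. FMO1, FMO2 and FMO4 are direct neighbours in the RefSeq annotation.

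The epoxide hydrolases summed to 1407 CPM in the virgin sample, 2002, 1961, 1988, 1996, 1871 and 2175 CPM over the gestation samples, and 1842 and 2869.9 CPM on lactation days 7 and 15. EPHX1, the microsomal hydrolase of drug epoxides, had 831 CPM in the virgin sample, 1297, 1189, 1109, 1257, 1162 and 1284 CPM over the gestation samples, and 1227 and 1915 CPM on lactation days 7 and 15. Its 6 gestation values spread little, 1216 ± 74.9 CPM (SD, n = 6), with lactation day 15 above and the virgin sample below all of them. EPHX2, the soluble hydrolase of fatty acid epoxides, had 575 CPM in the virgin sample, 703, 770.4, 877, 738, 709 and 889 CPM over the gestation samples, and 614 and 953 CPM on lactation days 7 and 15.

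The UGT sum was nearly all UGT2B7, which glucuronidates morphine, bile acids and steroids in man. UGT2B7 held 87.4% to 98.5% of the reads of the 6 selected UGT genes in each stage. Genes with LOC symbols carry no family name and are in none of the family sums. UGT2B7 had 679.6 CPM in the virgin sample, 1073, 1016, 1241, 549, 1036 and 232 CPM over the gestation samples, and 1156 and 1591 CPM on lactation days 7 and 15. Days 90 to 100 and 140 to 150 were the low gestation samples, and lactation day 15 was the highest sample. The UGT1A genes were all low. UGT1A6, which conjugates small phenols, had 7.33 CPM in the virgin sample, 7.47, 5.05, 13, 4.89, 6.34 and 6.36 CPM over the gestation samples, and 8.14 and 26.6 CPM on lactation days 7 and 15. UGT1A1, the bilirubin-conjugating form, had 7.22 CPM in the virgin sample, 5.84, 5.41, 9.12, 12.6, 7.01 and 14.4 CPM over the gestation samples, and 2.72 and 11 CPM on lactation days 7 and 15. Lactation day 15 held the highest UGT1A6 value and lactation day 7 the lowest UGT1A1 value.

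UGT1A3 had 5.56 CPM in the virgin sample, 8.56, 7.27, 7.58, 8.87, 6.71 and 8.49 CPM over the gestation samples, and 3.01 and 6.58 CPM on lactation days 7 and 15. UGT1A4 had 6.46 CPM in the virgin sample, 4.62, 3.69, 6.64, 2.99, 1.05 and 3.51 CPM over the gestation samples, and 3 and 6.39 CPM on lactation days 7 and 15. UGT1A9 stayed below 1 CPM in 7 of 9 stages and was highest at days 70 to 80, at 5.29 CPM, and on lactation day 15, at 2.41 CPM. The UGT1A genes stand in a row in the annotation and are known to share their last exons, so the deposited counts of single UGT1A genes are uncertain. In cells thinned to 155164 reads, UGT1A6 had a read in 71.5% of day 15 cells (95% exact interval 67.3% to 75.5%) and in 56.8% of cells of gestation days 70 to 80, against 22.9% to 39.1% in the other 7 stages. UGT1A9 had a read in 24.4% of cells of days 70 to 80 (95% exact interval 18.8% to 30.8%) and in 0.794% to 11.1% elsewhere. The intervals cover counting error only. Reads are not independent molecules unless collapsed by molecular identifiers, which the sources used here do not state. Without thinning, UGT1A6 had a read in 76.1% of day 15 cells.

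Of the 4 selected sulfotransferases only SULT1C2 exceeded 5 CPM. It had 13.1 CPM in the virgin sample, 10.6, 18.1, 21.6, 15.6, 24.4 and 12 CPM over the gestation samples, and 9.64 and 20.3 CPM on lactation days 7 and 15. GSTA1, a soluble glutathione transferase that also reduces peroxides, had 337 CPM in the virgin sample, 714, 713, 619.6, 627, 781 and 360.0 CPM over the gestation samples, and 274 and 434 CPM on lactation days 7 and 15. Its lowest samples were lactation day 7, the virgin sample and gestation days 140 to 150. GSTA1-1 held 2190 to 9459 CPM and was also lowest at days 140 to 150, and reads of such close copies could have been split between them.

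GSTZ1, which isomerizes maleylacetoacetate in tyrosine breakdown, varied least of the 27, with 291 CPM in the virgin sample, 285, 299.7, 242, 304, 244 and 247 CPM over the gestation samples, and 249 and 254 CPM on lactation days 7 and 15. GSTK1, a mitochondrial and peroxisomal form, had 285 CPM in the virgin sample, 226, 208, 229.8, 323, 301 and 208 CPM over the gestation samples, and 188 and 237 CPM on lactation days 7 and 15. MGST1, a membrane-bound transferase and peroxidase, had 1313 CPM in the virgin sample, 1553, 1853, 1641, 1419, 1731 and 824 CPM over the gestation samples, and 1045 and 2302 CPM on lactation days 7 and 15. Its day 15 value was the highest of all stages and its value at days 140 to 150 the lowest.

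MGST2, which can also make leukotriene C4, had 237 CPM in the virgin sample, 222, 341, 288, 352, 324 and 235 CPM over the gestation samples, and 219 and 238 CPM on lactation days 7 and 15. MGST3 had 193 CPM in the virgin sample, 304, 317, 201, 356, 323 and 508 CPM over the gestation samples, and 190.4 and 272 CPM on lactation days 7 and 15. It was highest at days 140 to 150, ahead of days 90 to 100.

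**Figure D2:**
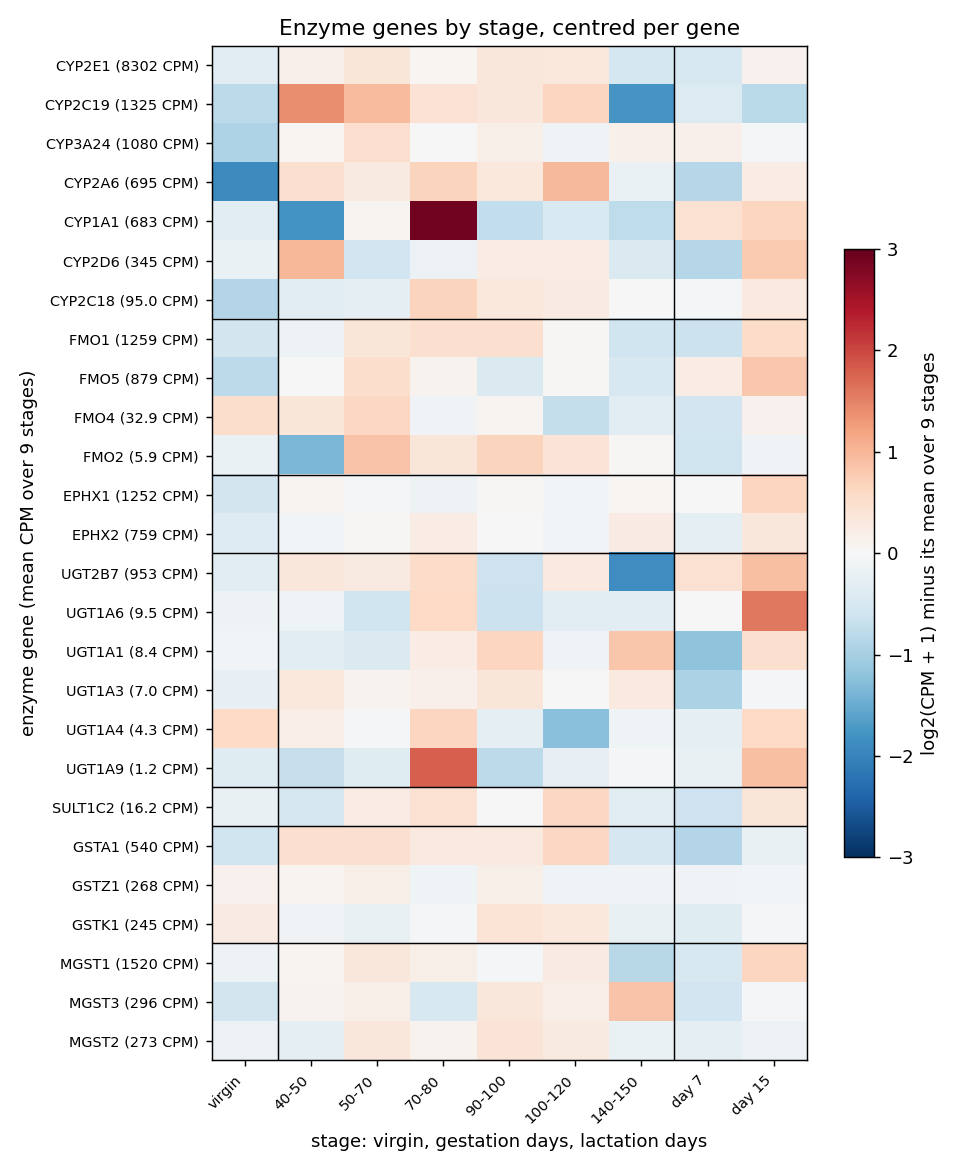
Each row is 1 of 26 enzymes, with its mean CPM over the 9 stages beside the name, and each column is 1 stage; colour is log2(CPM + 1) minus the gene's own mean over stages, red for higher and blue for lower. CYP1A1 at days 70 to 80 (3179 CPM), CYP2A6 in the virgin sample (161 CPM), and UGT2B7 and CYP2C19 at days 140 to 150 (232 and 321 CPM) stand out.

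The tests covered 28 enzymes, the 27 above and EPHX3. Between lactation and gestation, 0 of 28 enzymes passed an adjusted p of 0.05 in edgeR's quasi-likelihood test, where 0.0592% of all 20263 genes did. At an unadjusted p under 0.05 there were 3 of 28 enzymes, against 9.4% of all genes, and DESeq2's Wald test called 0 of 28, where it called 2.58% of all genes. Of the 28, 10 had a higher mean and the median log2 fold change was -0.15, beside 48.9% and -0.01 for all genes; scaled by library size alone, 15 of 28 and 63.1% of all genes were higher. The sign of this median depended on the lactation sample kept: without day 15, 6 of 28 were higher with a median of -0.53, and without day 7, 15 of 28 with a median of 0.12. UGT1A6 averaged 17.3 ± 13 CPM in lactation (SD, n = 2) and 7.19 ± 3.01 CPM in gestation (SD, n = 6), or 1.27 as a fitted log2 ratio (SE 0.43, adjusted p = 0.368 in edgeR). Day 15 lay above the gestation samples and day 7 among them, and without day 15 the log2 fold change was 0.18. GSTA1 averaged 354 ± 113 CPM in lactation (SD, n = 2) and 636 ± 148 CPM in gestation (SD, n = 6), or -0.84 as a fitted log2 ratio (SE 0.30, adjusted p = 0.406 in edgeR), with -1.21 without day 15 and -0.55 without day 7. UGT1A3 averaged 4.79 ± 2.52 CPM in lactation (SD, n = 2) and 7.91 ± 0.854 CPM in gestation (SD, n = 6), or -0.72 as a fitted log2 ratio (SE 0.29, adjusted p = 0.466 in edgeR), with -1.39 without day 15 and -0.27 without day 7. UGT1A3 was the only enzyme of 28 with both lactation samples below all 6 gestation samples, as 4.86% of all genes had. No enzyme had both lactation samples above all gestation samples, as 6.14% of all genes had.

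CYP1A1 averaged 620.3 ± 56.7 CPM in lactation (SD, n = 2) and 761 ± 1189 CPM in gestation (SD, n = 6), or -0.30 as a fitted log2 ratio (SE 1.08, adjusted p = 0.956 in edgeR). Its sign rested on days 70 to 80: without that sample the fold change was 1.16 on the log2 scale. CYP2E1 differed by -0.30 on the log2 scale (SE 0.30), with -0.64 without day 15 and -0.03 without day 7. UGT2B7 differed by 0.68 (SE 0.48), with 0.43 without day 15 and 0.89 without day 7. The family sums, for which no test was made, gave log2 ratios of lactation over gestation of -0.37 for CYP, 0.06 for FMO, 0.24 for EPHX, 0.67 for UGT, -0.19 for SULT, -0.50 for GST and 0.00 for MGST. With each stage left out in turn, the UGT ratio ran from 0.40 to 0.89, that of GST from -0.70 to -0.32 and that of CYP from -0.63 to -0.15. With GSTA1-1 added, an alternative chosen after seeing the data, the GST ratio was -0.19, and it was 0.27 without day 7 and -0.89 without day 15.

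The 2 lactation samples differed from each other, though with 1 sample a day no test can be made. Day 15 exceeded day 7 in 25 of the 27 enzymes, with a median difference of 0.63 in log2(CPM + 1), beside 50.9% of all 20263 genes and a median of 0.00. On the same scale 7 of 28 enzymes tested were more than 2-fold higher on day 15, beside 2.63% of all genes, and 0 of 28 were more than 2-fold lower, beside 3.63%. The added 1 shrinks the folds of low genes. Of all genes, 2094 on day 7 and 2324 on day 15 reached 50 CPM in the mean cell, among them 19 of the enzymes. The shares thus set enzymes beside genes of mostly lower level. UGT1A9, low on both days, was 4.24-fold higher on day 15, UGT1A1 4.05-fold, UGT1A6 3.26-fold, CYP2D6 3.14-fold, FMO1 2.27-fold, MGST1 2.20-fold and CYP2A6 2.13-fold. CYP2C19 and CYP3A24 were lower, at 0.757 and 0.880 of their day 7 levels. Some day 7 values averaged over unlike runs of cells. For 4 of 19 enzymes a single step along the cell number explained over 25% of variance there. Median CPM before and after the step was 2021 and 1014 for EPHX1, and 1019 and 465 for EPHX2. It was 621 and 127 for GSTA1, and 357 and 100 for CYP2D6. Their day 15 medians were 2023, 1004, 414 and 508 CPM. The part of these runs in the day difference was not tested. FMO1 had 1747 CPM on day 15 (exact Poisson 95% interval 1742 to 1752) and 770.3 CPM on day 7 (765 to 775). These intervals treat reads as independent and leave out the spread between cells and between samples. Across single cells the quartiles of FMO1 were 1095 and 2760 CPM on day 15, and 146 and 1292 CPM on day 7. Day 7 also held 9781 CPM of the acute-phase gene ORM1, looked at after its values were seen, against 115 CPM on day 15. ORM1 had 1885 CPM in the virgin sample and 50.1 to 328 CPM in most gestation samples. It had 4730 CPM at days 50 to 70, where the P450 sum was 15439 CPM, and 7818 CPM at days 140 to 150, where that sum was 8167 CPM. Within days 140 to 150 ORM1 was high in cells 413 to 492 and low in cells 1 to 412, as given below. The P450 sum of cells 1 to 412 alone was 8731 CPM. The part of ORM1 in the enzyme levels was not tested.

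Against the virgin sample, gestation was higher in 23 of 28 enzymes with a median log2 fold change of 0.46, beside 54.8% of all genes and 0.06. None of the 28 passed the adjusted threshold in edgeR, where 0.00494% of genes did; 3 of 28 had an unadjusted p under 0.05, beside 4.45%. CYP2A6 averaged 840.4 ± 229 CPM in gestation (SD, n = 6) and had 161 CPM in the virgin sample, or 2.39 as a fitted log2 ratio (SE 0.54, adjusted p = 0.524 in edgeR). CYP3A24 averaged 1162 ± 175 CPM in gestation (SD, n = 6) and had 555 CPM in the virgin sample, or 1.07 as a fitted log2 ratio (SE 0.29, adjusted p = 0.887 in edgeR). DESeq2 called these 2 enzymes of 28, beside 0.577% of all genes, with adjusted p = 0.000195 for CYP2A6 and 0.0193 for CYP3A24. CYP2C18 differed by 1.05 (SE 0.38, adjusted p = 1 in edgeR). The virgin sample lay below all 6 gestation samples in 9 of 28 enzymes, beside 12.3% of all genes, and above all 6 in 0, beside 14.8%. The 9 were CYP2A6, CYP2C18, CYP3A24, EPHX1, EPHX2, FMO5, GSTA1, MGST3 and UGT1A3, and the first 6 of them were also below both lactation samples, beside 8.33% of all genes.

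Lactation against the virgin sample shares that sample, so its values are no separate evidence. Of 28 enzymes 20 were higher in lactation (median log2 fold change 0.28, beside 53.4% and 0.05 of all genes), 0 passed the adjusted threshold in edgeR, as did 0% of genes, and 5 had an unadjusted p under 0.05, beside 4.94%. This direction too depended on the lactation sample kept: without day 15, 12 of 28 were higher with a median of -0.10, and without day 7, 23 of 28 with a median of 0.62. DESeq2 called 0 of 28 here, beside 0.474% of all genes. FMO5 averaged 1218 ± 342 CPM (SD, n = 2) in lactation, against 487 CPM in the virgin sample, or 1.32 as a fitted log2 ratio (SE 0.46, adjusted p = 0.965 in edgeR). EPHX1 averaged 1571 ± 487 CPM (SD, n = 2) in lactation, against 831 CPM in the virgin sample, or 0.92 as a fitted log2 ratio (SE 0.32, adjusted p = 0.965 in edgeR), with 0.56 without day 15.

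Along gestation, fitted on the middle day of each stage, 0 of 28 enzymes passed the adjusted threshold in edgeR, where 0.0336% of 17848 genes did, and 4 had an unadjusted p under 0.05, beside 6.62%. CYP2C19 had a log2 slope per 100 days of -2.45 (SE 0.64, adjusted p = 0.389 in edgeR), and was the 1 enzyme DESeq2 called, with an adjusted p of 0.00128, beside 1.71% of all genes. UGT2B7 had a slope of -1.85 (SE 0.70, adjusted p = 0.704 in edgeR), which was -0.54 without days 140 to 150. UGT1A1 had a slope of 1.26 (SE 0.44, adjusted p = 0.629 in edgeR) and FMO4 one of -0.98 (SE 0.37, adjusted p = 0.699 in edgeR), which was -1.66 without days 140 to 150. The slope of CYP2C19 without days 140 to 150 was -1.22.

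Days 140 to 150, the sample nearest to birth, lay below the 5 earlier gestation samples in 9 of 28 enzymes, beside 12.7% of all genes, and above them in 4, beside 16.7%. Among the 9 were CYP2A6, CYP2C19, CYP2E1, FMO1, FMO5, GSTA1, MGST1 and UGT2B7. The widest gaps were in CYP2C19, at 321 CPM against 1371 to 2849 CPM in the earlier samples, and in UGT2B7, at 232 CPM against 549 to 1241 CPM. EPHX2, EPHX3, MGST3 and UGT1A1 were the 4 above. This is 1 sample set against 5, and no test was made of it.

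Some stage values averaged over cells of very different levels. At gestation days 70 to 80 the 164 cells numbered 90 to 253 in the deposited table had a median of 6433 CPM of CYP1A1, whereas cells 1 to 89 had 4.58 to 595 CPM with a median of 229.6 CPM. Of those 164 cells, only cell 241, at 97.1 CPM, lay in the range of the first 89, and the next lowest had 2718 CPM. The medians differed 28.0-fold, and a single step along the cell number explained 90.8% of the variance of log2(CPM + 1), the most of 2132 genes of at least 50 CPM, whose median was 4.34%. The place of the step was chosen from the values, so it has no test. The labels do not say what the cell number stands for, and what separates the runs of cells was not tested.

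**Figure D3:**
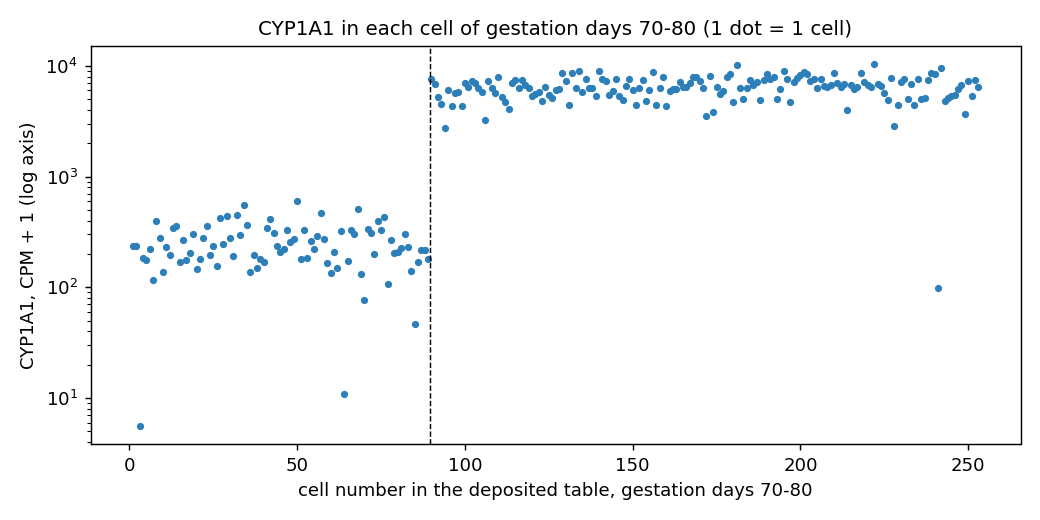
CYP1A1 in each of the 253 cells of gestation days 70 to 80 (y axis, CPM + 1 on a log axis) by cell number in the deposited table (x axis); each dot is 1 cell and the dashed line lies after cell 89. Cells 90 to 253 have a median of 6433 CPM and cells 1 to 89 a median of 229.6 CPM, with 1 low cell, number 241, on the right.

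From cells 90 to 253 alone the stage value of CYP1A1 was 5964 CPM, and from cells 1 to 89 alone it was 259 CPM, within the 122 to 452 CPM of the other gestation samples. Cells of 2500 CPM or more numbered 163 of 253 at days 70 to 80, 0 in the other 5 gestation samples and the virgin sample, 1 of 246 on lactation day 7 and 3 of 553 on day 15. Other steps fell at this place as well: 354 of the 2132 genes had their best step within 2 cells of it, and 18 of the 19 genes with over 50% of variance explained anywhere in this stage were among them. Median reads per cell were 334390 in the later cells and 676557 in the earlier ones, and the hepatocyte markers summed to 162819 CPM in the later and 168238 CPM in the earlier cells.

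No other enzyme among the 18 of at least 100 CPM on average moved as far across the CYP1A1 step. CYP3A24 averaged 649 CPM per cell after it and 1511 CPM before it. GSTA1 averaged 831 CPM after and 429.8 CPM before the step, and CYP2A6 averaged 1329 CPM after and 764 CPM before. CYP2C19, at 1463 CPM after and 1564 CPM before, and EPHX2, at 923 CPM after and 932 CPM before, were nearly level. Of the low-level enzymes, UGT1A9 averaged 8.94 CPM after and 0.328 CPM before the step. UGT1A6 averaged 18.1 CPM after and 8.07 CPM before, and SULT1C2 averaged 10.2 CPM after and 35.5 CPM before. The aryl hydrocarbon receptor is known to induce TIPARP and NQO1 along with CYP1A1. TIPARP, chosen after its values were seen, averaged 20.2 CPM after and 15.3 CPM before, and NQO1 averaged 27.8 CPM after and 14.6 CPM before. The receptor's own gene AHR averaged 51.1 CPM after and 44.3 CPM before. MYC, the only immediate early gene given here, averaged 196 CPM after and 12.8 CPM before the step. Other immediate early genes are not given, so MYC does not stand for that group. Its part in the enzyme levels was not tested.

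At gestation days 140 to 150, cells 413 to 492 differed from the first 412 in many of these enzymes at once. GSTA1 had a median of 2.62 CPM in the 80 later cells and 389 CPM in the 412 earlier cells. EPHX1 had a median of 177 CPM in the later cells and 1439.7 CPM in the earlier cells. These were the steps with the most and second most variance explained of 1978 genes, 87.1% and 86.5%.

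Of the 27 enzymes, 15 had a mean more than 2-fold lower and 3 a mean more than 2-fold higher in the later cells. The place of this split was chosen from the values of GSTA1, so it has no test. The share of all genes this far apart was not counted, so these counts do not set the enzymes apart from other genes. By their own best step, 20.0% of 1978 genes had over 25% of variance explained in this stage. Among the P450s, CYP2C19 averaged 51.3 CPM in the later and 390.3 CPM in the earlier cells. CYP2C18 averaged 14.3 CPM in the later and 108 CPM in the earlier cells, and CYP2D6 averaged 44.5 CPM in the later and 276 CPM in the earlier cells. CYP2E1 differed less, with 2599 CPM in the later and 6229 CPM in the earlier cells. FMO5 averaged 168 CPM in the later and 682 CPM in the earlier cells. The 3 that were higher included MGST3, with 1096 CPM in the later and 324 CPM in the earlier cells, and CYP3A24, with 1973 CPM in the later and 901 CPM in the earlier cells. The other was SULT1C2, with 30.2 CPM in the later and 7.34 CPM in the earlier cells. CYP1A1, at 252 CPM in the later and 241 CPM in the earlier cells, was nearly level.

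Other liver genes differed at the same place. ALB, serum albumin, averaged 28858 CPM in the later and 103355 CPM in the earlier cells. TTR, which carries thyroid hormone, averaged 4116 CPM in the later and 18423 CPM in the earlier cells, whereas the fibrinogen gene FGB averaged 36137 CPM in the later and 17391 CPM in the earlier cells. ORM1, chosen after its values were seen, averaged 36880 CPM in the later and 46.3 CPM in the earlier cells. HNF4A, a hepatocyte transcription factor, averaged 116 CPM in the later and 122 CPM in the earlier cells. The summed hepatocyte markers were 101377 CPM in the later and 177694 CPM in the earlier cells, and median reads per cell were 488068 in the later and 374883 in the earlier cells. The part of these in the enzyme levels was not tested.

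CYP3A24 changed at other places in the same stage. Fitted with 3 changes, after cells 120, 257 and 312, which explained 84.1% of its variance, it had a median of 43.1 CPM in cells 1 to 120. The median was 1392 CPM in cells 121 to 257 and 76.9 CPM in cells 258 to 312. The last run was split further at the GSTA1 step, with 1594 CPM in cells 313 to 412 and 1845 CPM in cells 413 to 492. The places were chosen from the values, so they have no test. CYP2C19 went the opposite way over the first 4 runs, with medians of 505, 149, 809 and 176 CPM, as did CYP2C18 with 128, 71.7, 164 and 66.4 CPM. CYP2E1 had 6102, 4301, 8823 and 5220 CPM over these runs, and FMO1 726, 583, 1219 and 528 CPM. MGST3 followed CYP3A24, with 211, 353, 203 and 377 CPM, whereas EPHX1 stayed within 1334 to 1549 CPM. The value of CYP3A24 summed over the stage was 1169.8 CPM.

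**Figure D4:**
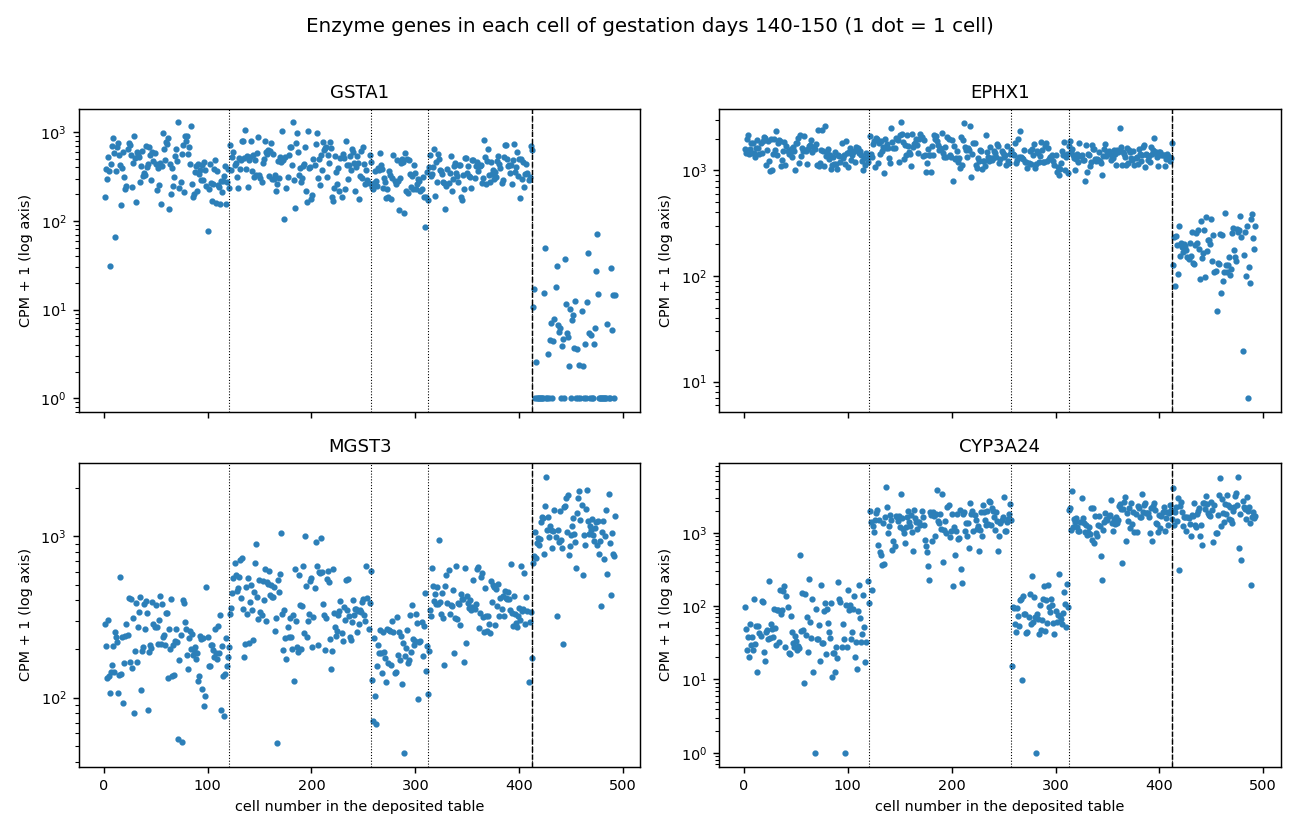
GSTA1, EPHX1, MGST3 and CYP3A24 in each of the 492 cells of gestation days 140 to 150 (y axes, CPM + 1 on log axes) by cell number (x axes); each dot is 1 cell, the dashed line lies after cell 412 and dotted lines after cells 120, 257 and 312. GSTA1 and EPHX1 fall at cell 413 to medians of 2.62 and 177 CPM, MGST3 climbs there to 1053 CPM, and CYP3A24 alternates between medians of 43.1 to 76.9 CPM and 1392 to 1845 CPM.

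Many of the low values at days 140 to 150 stayed low when the last 80 cells were left out. The part of the runs within cells 1 to 412 in these values was not tested. With cells 1 to 412 only, the stage lay below the 5 earlier gestation samples in 11 of 28 enzymes, beside 14.2% of all genes, and above them in 3, beside 17.9%. CYP2C19 was then at 384 CPM, UGT2B7 at 262 CPM, CYP2E1 at 6264 CPM and GSTA1 at 444 CPM, each still below every earlier sample. FMO5, at 691 CPM, was no longer below them, EPHX1, at 1539 CPM, lay above them, and MGST3, at 337 CPM, no longer did. The P450 sum of days 140 to 150 was 8731 CPM from these cells and 8167 CPM from all.

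Runs of this kind were found in other stages too. By the single best step, enzymes with over 25% of variance explained numbered 0 of 19 in the virgin sample, 1, 5, 3, 5, 5 and 8 in the 6 gestation samples, and 4 and 0 on lactation days 7 and 15. The share of all genes of 50 CPM or more past that mark was 2.11% to 7.99% in the other stages and 20.0% at days 140 to 150. On lactation day 7 the step of GSTA1 lay after cell 82, with a median of 127 CPM after it and 621 CPM before it, and EPHX2 had a median of 465 CPM after that cell and 1019 CPM before it. At days 90 to 100 CYP3A24 had a median of 1860.0 CPM after cell 154 and 374 CPM up to it, and CYP2A6 had 894 CPM after cell 82 and 24.9 CPM up to it. CYP1A1 had its step there after cell 78, with 279.6 CPM after and 19.3 CPM before, and CYP2C19 after cell 84, with 1571 CPM after and 252 CPM before. At days 100 to 120 the last 25 cells had a median of 3.18 CPM of CYP2C18, against 90.9 CPM in the first 328, and 6701 CPM of CYP2C19, against 1101 CPM in the first 328. In every test above a stage is 1 sample, whatever runs it holds.

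Across the cells of a stage, thinned to the same depth, one set of enzymes followed the genes known to mark the centre of the lobule. The 18 enzymes of at least 100 CPM on average were set against the mean log2(CPM + 1) of 9 pericentral genes that are no drug-metabolizing enzymes, such as GLUL and OAT, and of 15 periportal genes, such as CPS1 and ARG1. CYP2E1 had a median Spearman rho over the 9 stages of 0.56 with the pericentral genes and -0.64 with the periportal genes, FMO1 0.54 and -0.63, CYP2A6 0.52 and -0.48, CYP2C19 0.40 and -0.43, and UGT2B7 0.38 and -0.50. CYP2E1, FMO1, CYP2A6, CYP2C19 and EPHX2 had a positive rho with the pericentral genes in all 9 stages. CYP2D6 went the other way, with medians of -0.22 and 0.31, and MGST3 and GSTK1 had a negative rho with the pericentral genes in all 9 stages, with medians of -0.14 and -0.16. The cells of a stage share their runs of cell numbers and each stage holds 213 to 495 thinned cells, so these values describe the cells and carry no p.

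**Figure D5:**
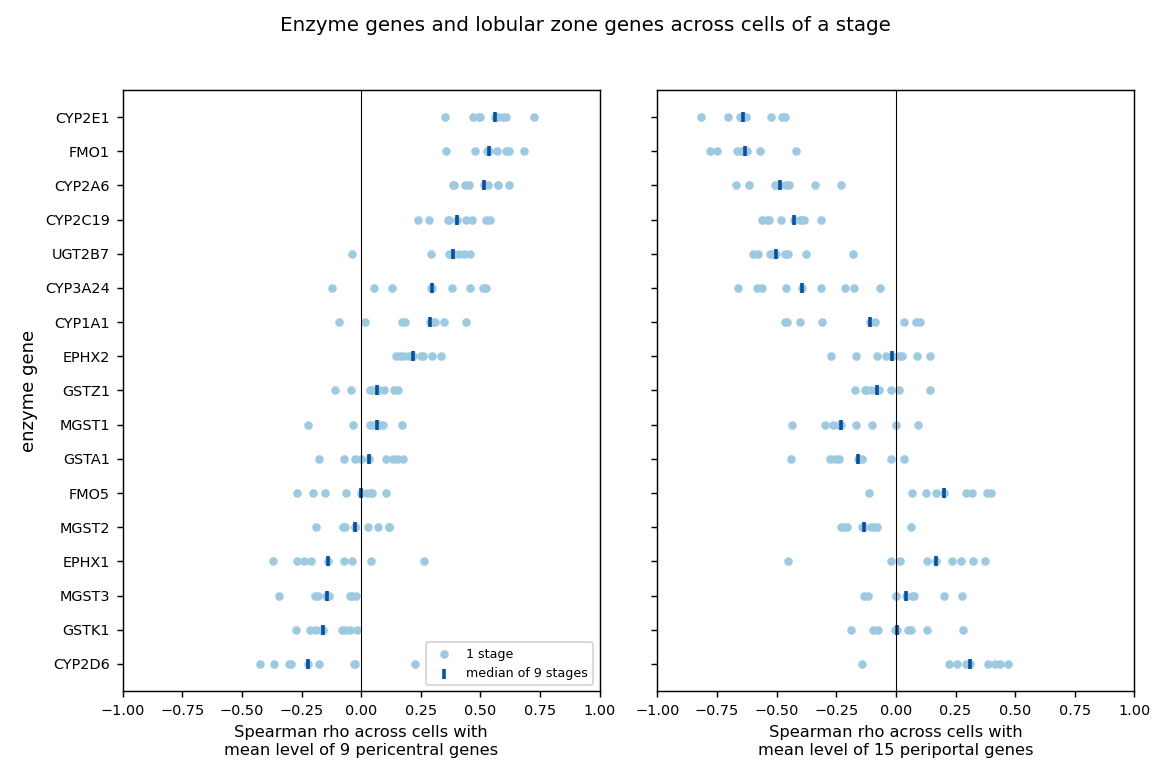
Spearman rho across the thinned cells of a stage (x axes) between each of 17 enzymes (rows) and the mean log2(CPM + 1) of 9 pericentral genes (left) or 15 periportal genes (right); light dots are the 9 stages and dark bars their medians. CYP2E1, FMO1 and CYP2A6 lie at the top, with pericentral medians of 0.56, 0.54 and 0.52, and CYP2D6 at the bottom, with -0.22.

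Between enzymes, CYP2E1 and FMO1 varied together most closely of 153 pairs, with a median rho of 0.83 over stages and 0.75 to 0.91 in single stages. CYP2A6 had a median rho of 0.74 with CYP2E1 and 0.73 with FMO1, and UGT2B7 had 0.66 with each of CYP2E1 and FMO1. The lowest medians were those of CYP2D6 with CYP2E1 and with FMO1, both -0.38. Over all pairs the median was 0.07, and 91 of 153 had a positive median.

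The genes that feed and control these enzymes gave few calls of their own. Of 12 genes for electron donors and cofactors with a row, 0 passed the adjusted threshold in any of the 4 contrasts in edgeR, and 4 had an unadjusted p under 0.05 between lactation and gestation, all higher in lactation, beside 9.4% of all genes in either direction. GCLM, a subunit of the first enzyme of glutathione synthesis, averaged 223 ± 8.74 CPM in lactation (SD, n = 2) and 141 ± 14.8 CPM in gestation (SD, n = 6), or 0.66 as a fitted log2 ratio (SE 0.16, adjusted p = 0.186 in edgeR). SLC35D1, which carries UDP-glucuronic acid into the endoplasmic reticulum, averaged 139.7 ± 80.4 CPM in lactation (SD, n = 2) and 64.5 ± 12.5 CPM in gestation (SD, n = 6), or 1.11 as a fitted log2 ratio (SE 0.29, adjusted p = 0.228 in edgeR). SLC35D1 had 197 CPM on day 15, above all gestation samples, and 82.8 CPM on day 7, within their range of 45.7 to 83.0 CPM. DESeq2 called both of these genes and no other of the 12, beside 2.58% of all genes between lactation and gestation. Of the 4 at an unadjusted p under 0.05 in edgeR, GCLM alone was above all gestation samples on both lactation days. The others were above them on day 15 only. Of 11 xenobiotic receptors and partners 0 passed in edgeR in any contrast, with 0 to 2 at an unadjusted p under 0.05 in each, beside 4.45% to 9.4% of all genes; 10 of the 11 were tested along gestation. Their largest departures along gestation were AHR, with a slope of -1.38 per 100 days (SE 0.34, adjusted p = 0.364 in edgeR), and the pregnane X receptor NR1I2, with 0.85 (SE 0.31, adjusted p = 0.666 in edgeR). DESeq2 called AHR alone of these. Of 21 other drug-handling enzymes 0 passed in any contrast in edgeR, with 1 to 3 at an unadjusted p under 0.05 in each, beside the same 4.45% to 9.4%, and DESeq2 called NNMT between lactation and gestation and AKR7A2 along gestation. Those with the smallest unadjusted p between lactation and gestation were NQO1, a quinone reductase, at 53.1 ± 53.7 CPM in lactation (SD, n = 2) and 16.6 ± 5.27 CPM in gestation (SD, n = 6), and NNMT, which methylates nicotinamide, at 11.9 ± 12.6 CPM in lactation (SD, n = 2) and 86.0 ± 58.2 CPM in gestation (SD, n = 6), with adjusted p = 0.314 and 0.317 in edgeR. NQO1 had 91.1 CPM on day 15, above all gestation samples, and 15.1 CPM on day 7, within their range of 8.86 to 21.2 CPM, whereas NNMT was below all gestation samples on both days.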

How the data were processed

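The deposited values are whole-number, unnormalized read counts per gene and cell. The submitters' processing notes name featureCounts 2.0.1, HISAT2 2.1.0 and Trimmomatic 0.39; the genome build, the strand setting and any collapse of molecular identifiers are not given in the sources used here. Rows without a gene name (24 rows, 0.474% of reads) were left out. All 33 enzymes were found in RefSeq's gene table (assembly ARS-UI_Ramb_v3.0), used for names and neighbours only. Genes with LOC symbols (12262 of 28837) carry no family name and are not covered. No 2 cells had identical counts, and no cell was left out or typed.

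Counts of 3404 cells were summed per stage, TMM-scaled, filtered with filterByExpr and fitted with edgeR 4.0.16 (quasi-likelihood, Benjamini-Hochberg adjustment over all genes, threshold 0.05; R 4.3.3), with a term per phase over 9 stages, and for the trend on the midpoint day of the 6 gestation stages, per 100 days. DESeq2 1.42.0 and limma 3.58.1, on log2(CPM + 1), gave alternatives. The fits were checked on simulated counts. Steps along the cell number are the single best least-squares split of log2(CPM + 1), at least 20 cells from either end, for genes of 50 CPM or more. Correlations and detection shares used the 3063 cells of at least 155164 reads, the 10th percentile, each thinned to that depth. Median reads per cell were 374832 to 469964 by stage. Tables and figures were made with SciPy 1.17.1, pandas 2.3.3, matplotlib 3.10.9 and numpy 2.4.6 in Python 3.11.15.

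The enzymes and gene lists were chosen with earlier results of these data known. Given in every stage are the 2 highest members of each family and, for lactation against gestation and for the trend, up to 6 members per direction with the smallest unadjusted p; CYP1A1 and CYP3A24 were added after their values were seen, and 1 enzyme is in the counts but is not reported here by itself. Of the lists of partner genes, the 2 with the smallest unadjusted p in a contrast are named. Alternatives were other scalings, DESeq2, no filter, equal weight per cell, deeper cells only and leaving out each stage; splits at 2 steps and a GST sum with GSTA1-1 were added after seeing the data.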

Additional observations from a re-analysis of the deposited data

Results flagged for a closer look

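Among the 6 gestation samples, 4 of 34 values looked at (the enzymes and the family sums) had an extreme sample set far apart from the rest by Dixon's criterion, which chance flags in about 1 of 20 such groups. CYP1A1 was highest at days 70 to 80, at 3179 CPM, with 5964 CPM from cells 90 to 253 alone and 259 CPM from cells 1 to 89 alone. UGT1A6 was highest in the same sample, at 13.0 CPM, with 17.5 CPM from cells 90 to 253 and 8.43 CPM from cells 1 to 89. UGT1A9 was highest there too, at 5.29 CPM, with 9.85 CPM from cells 90 to 253 and 0.508 CPM from cells 1 to 89. The sum of the P450 family was lowest at days 140 to 150, at 8167 CPM, and 8731 CPM from cells 1 to 412 alone. All 3 single genes were thus high in the same run of cells, whose cause was not tested.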

How the results depend on the processing

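With 2 lactation samples and 1 virgin sample, few genes of any kind were called, and counts of calls moved with the setting. Between lactation and gestation 12 genes were called (6 higher, 6 lower), and 22 when scaled by library size alone (16 higher, 6 lower), 523 by DESeq2, 21 without a filter, 6 by limma with equal weight per cell, 1 with days 70 to 80 from cells after the CYP1A1 step and 1 with days 140 to 150 from cells before the GSTA1 step. With each stage left out the count ran from 1 to 45: 45 without lactation day 7, 2 without day 15, 1 without days 40 to 50 or 70 to 80, and 2 without days 50 to 70, 90 to 100 or 100 to 120. Between gestation and virgin 1 gene was called, and 117 by DESeq2, 5 without a filter, 57 by limma, 0 with either side of the CYP1A1 step, and 1 to 2 with a stage left out (2 without days 50 to 70). Between lactation and virgin 0 genes were called, and 96 by DESeq2, 33 by limma and 0 to 1 with a stage left out (1 without days 140 to 150). Along gestation 6 genes were called, and 306 by DESeq2, 17 without a filter, 16 by limma, 1 with the cells after the CYP1A1 step, and 0 to 9 with a stage left out (0 without days 140 to 150, 1 without days 50 to 70 or 90 to 100, 2 without days 40 to 50). Of the enzymes, DESeq2 called 2 between gestation and virgin and 1 along gestation, and 0 were called under the other settings, each stage left out included. The log2 fold change of CYP1A1 between lactation and gestation, -0.30, became 0.71 with equal weight per cell, 1.16 without days 70 to 80 and 1.17 with that stage from cells before the step (-0.53 to 1.16 with each stage left out). The other 18 single fold changes or slopes followed kept their direction, but not every enzyme was followed. With each stage left out, some others changed sign between lactation and gestation, such as CYP2D6 (-0.99 to 0.65), MGST1 (-0.52 to 0.61) and FMO1 (-0.79 to 0.39). Of the log2 ratios of family sums, that of EPHX, 0.24, was 0.43 when scaled by library size alone and 0.43 with equal weight per cell, that of MGST, 0.00, was 0.25 with equal weight per cell, and that of GST, -0.50, was -0.19 with GSTA1-1 added. With each stage left out the ratios ran from -0.38 to 0.40 for FMO, -0.12 to 0.52 for EPHX, -0.82 to 0.25 for SULT, -0.55 to 0.40 for MGST and -0.49 to 0.11 for all families, the lower ends without lactation day 15. The cause of these shifts was not tested. The same 27 enzymes reached 5 CPM under each scaling tried. No paired analysis was possible because the labels give the samples no replicate numbers.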
